A study of Mus musculus with 8 samples.

Results

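The Ypel genes (Yippee-like) encode small, strongly conserved zinc-binding proteins named after the Yippee protein of the fruit fly. They are found in nearly all eukaryotes, and in mammals they have been linked to growth arrest, cell shape and protein turnover. Ypel3 is a p53-regulated gene whose product restrains growth and can bring cells to senescence. Ypel5 is the most divergent member, and its product binds the CTLH complex, a ubiquitin ligase built from several subunits. Ypel1 has been studied for its effect on cell shape, and much less is known of Ypel2 and Ypel4.

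All 5 genes of the family, chosen by symbol, were present among the 22609 genes of the count tables, and 4 of them had enough counts to be tested among 13944 genes. The family was singled out because an earlier analysis of these mice had placed Ypel2 among the genes that differed most between aged and young mice. The age difference of Ypel2 is therefore given as a description with no test, whereas Ypel1, Ypel3, Ypel4 and Ypel5 were taken along by name.

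The study compared renal cortex RNA of 4 aged mice (30 months by the sample labels, although the study also states other mean ages) with that of 4 young mice (5 months), all male C57BL6 without treatment, with one library per mouse. RNA was depleted of ribosomal RNA and sequenced with strand kept, and counts on genes ranged from 14820804 to 19821429 per library. The labelled tissue was checked against markers of the proximal tubule, the main tubule of the cortex. None of the 11 was at 0 and their summed level was between 11490 and 28140 CPM (the usual depth-scaled count, here with TMM factors). Aged mouse 1 stood apart from the other mice. It lay at 71.5 on the first principal component, where the other aged mice lay between -2.26 and 16.3, and its summed proximal tubule level was 11490 CPM against 23780 to 27010 CPM in the other aged mice. The age differences of the Ypel genes are given with and without it, while other values include it unless stated. In whole tissue, more cells of a type and more RNA per cell cannot be told apart.

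The members are spread over 5 chromosomes of the mouse genome build mm9. Ypel2 lies on the minus strand of chromosome 11 (86749927 to 86807209) in 5 exons, Ypel3 on the plus strand of chromosome 7 (133920469 to 133924028), and Ypel5 on the plus strand of chromosome 17 (73186044 to 73200535). Ypel1 lies on chromosome 16 (17069789 to 17087138) and Ypel4 on chromosome 2 (84574215 to 84578812), both on the plus strand. Ypel1 overlaps Gm9974 and Ppil2 on the other strand, and the counting kept strand. The other 4 members overlap no annotated gene.

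The coding sequences are short, between 357 nt in Ypel1 and 384 nt in Ypel4. Ypel2 and Ypel3 were 82.2% identical over 360 aligned positions, Ypel1 and Ypel2 80.7% over 357, and Ypel2 and Ypel4 77.2% over 360. Ypel5 was 50.4% to 54.1% identical to the other members. The 60 coding bases below are the stretch without gaps, within a single exon of each gene, that has the most matches to Ypel2 summed over the members. They are shown because reads of one member could be taken for another where sequences are alike. Single pairs may be more alike elsewhere. Capitals mark bases that differ from Ypel2.
Ypel2: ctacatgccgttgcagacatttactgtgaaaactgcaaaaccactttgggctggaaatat
Ypel3: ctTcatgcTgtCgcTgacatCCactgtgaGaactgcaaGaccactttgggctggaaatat
Ypel1: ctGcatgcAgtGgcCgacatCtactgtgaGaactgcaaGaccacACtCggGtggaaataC
Ypel4: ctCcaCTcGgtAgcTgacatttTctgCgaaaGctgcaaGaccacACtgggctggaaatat
Ypel5: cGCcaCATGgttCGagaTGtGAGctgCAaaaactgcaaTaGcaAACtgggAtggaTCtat

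In this stretch, 8 of 60 bases separated Ypel3 from Ypel2, 12 separated Ypel1 and Ypel4, and 23 separated Ypel5. It covers chr11:86758075-86758134 in Ypel2, chr7:133921869-133921928 in Ypel3, chr16:17082210-17082269 in Ypel1, chr2:84577626-84577685 in Ypel4 and chr17:73197971-73198030 in Ypel5. No run of 50 nt was shared between the longest transcripts of any pair of members. No copy of at least 98% identity over 100 nt was found elsewhere in mm9 for any of the 5 transcripts.

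In the young renal cortex the family was led by Ypel3. Levels between genes were compared per length, as FPKM (CPM per kilobase of the longest coding transcript). Ypel3 stood at 24.1 ± 2.31 FPKM (SD, n = 4), Ypel5 at 14.0 ± 0.609, Ypel2 at 3.66 ± 0.332 and Ypel1 at 0.398 ± 0.0633. Ypel4 was near the limit of detection. Every neighbor in this order was separated, with no overlap between the ranges of the young mice. Ypel5 had the lowest coefficient of variation among young mice, 4.33%, compared with 9.06% for Ypel2, 9.59% for Ypel3 and 15.9% for Ypel1. These values include counting error, which weighs most on Ypel1, with 19 to 27 counts per young mouse.

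In the aged renal cortex the same order of means held. The ratio of the mean of Ypel5 to that of Ypel2 was 1.16, compared with 3.84 in young mice, while the ratio of Ypel3 to Ypel5 was 2.02 compared with 1.71. Ypel3 stood at 29.7 ± 7.92 FPKM (SD, n = 4), Ypel5 at 14.7 ± 5.77, Ypel2 at 12.7 ± 2.30 and Ypel1 at 0.277 ± 0.145. Without aged mouse 1, the means of Ypel3, Ypel5 and Ypel2 were 27.0, 11.9 and 11.6 FPKM. The ranges of Ypel5 and Ypel2 overlapped, and Ypel5 was above Ypel2 in 2 of 4 aged mice, so these 2 members did not differ beyond their spread. The ranges of Ypel3 and Ypel5 also overlapped between mice, although Ypel3 was above Ypel5 within each of the 4 aged mice. The order of the means was the same in both groups when the length of the merged exons was used.

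**Figure D1:**
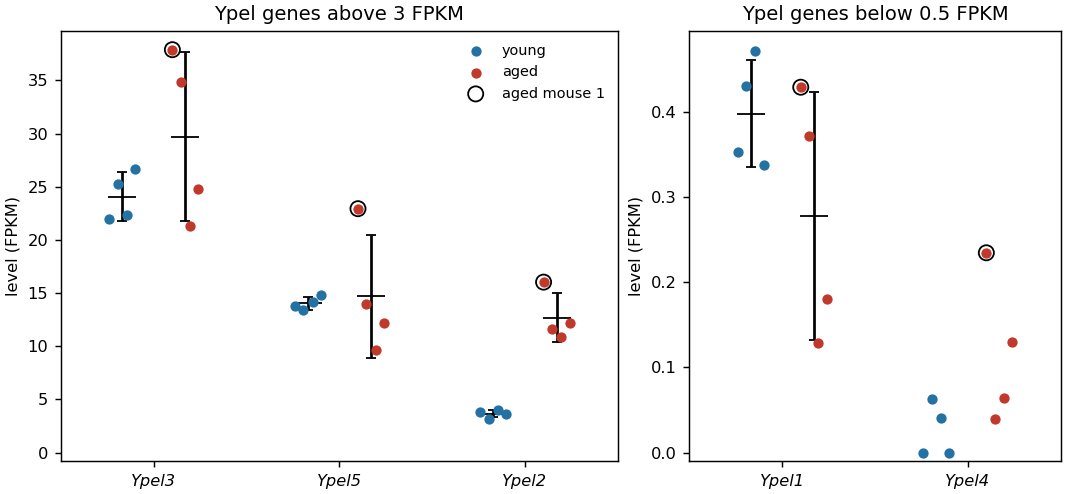
Level of each Ypel gene (FPKM, linear axes that differ between the panels) in 4 young (blue) and 4 aged (red) mice, with the mean and SD as bars except for Ypel4, whose counts are too few, and aged mouse 1 circled. Ypel2 is the member whose aged values, from 10.9 FPKM upwards, all lie above the young values of 3.20 to 3.96 FPKM, and aged mouse 1 is the highest aged mouse in every gene.

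Ypel2 was higher in every aged mouse. Its counts in aged mice 1 to 4 were 1582, 866, 985 and 1086, and those in young mice 1 to 4 were 301, 293, 282 and 301. The lowest aged mouse was well above the highest young mouse, and the young mice were nearly alike. Scaled for depth, Ypel2 stood at 61.5 ± 11.1 CPM with age and 17.8 ± 1.61 CPM in the young group (SD, n = 4 each). The log2 fold change was 1.79 with a standard error of 0.14. Without aged mouse 1, whose level of 77.7 CPM was the highest, the aged mean was 56.0 ± 3.27 CPM (SD, n = 3) and the log2 fold change 1.66. By mean CPM, which is not corrected for gene length, Ypel2 stood at percentile 42.2 of the genes tested in young mice and 74.1 in aged mice.

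A gene was called where the edgeR quasi-likelihood p, adjusted by Benjamini-Hochberg, was under 0.05 and the change more than 1.5-fold. Of the tested members taken by name, Ypel1, Ypel3 and Ypel5, none was called. Over all genes tested 2.06% were called, 1.17% higher and 0.889% lower in aged mice. The ranges of the groups overlapped for each of these members, while they did not overlap for 18.9% of all genes tested. With so few members, nothing is read from these counts. Ypel2 was chosen on this contrast and is left out of them.

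Ypel3, the p53-regulated member, showed no difference that passed the test. Its counts in aged mice 1 to 4 were 1230, 855, 636 and 725, and those in young mice 1 to 4 were 568, 762, 523 and 721. Aged mice 1 and 2 lay above all young mice, while aged mouse 3 lay below all of them after scaling for depth, at 34.0 CPM against 35.0 to 42.6 CPM. The log2 fold change was 0.30 with a standard error of 0.18 (edgeR quasi-likelihood, adjusted p = 0.308), and 0.16 without aged mouse 1 (edgeR, adjusted p = 0.550).

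Ypel5, the member tied to the CTLH ligase, showed no difference in either direction that passed the test, and its sign depended on a single mouse. Its counts in aged mice 1 to 4 were 1340, 617, 520 and 640, and those in young mice 1 to 4 were 643, 727, 596 and 721. Aged mouse 1 was far above every other mouse, at 65.8 CPM. Aged mice 3 and 4, at 27.8 and 34.9 CPM, lay below the whole young range of 38.4 to 42.6 CPM, and aged mouse 2 lay inside it at 40.1 CPM. The log2 fold change was 0.07 with a standard error of 0.23 (edgeR, adjusted p = 0.875) with all mice. Without aged mouse 1 it was -0.24 (edgeR, adjusted p = 0.239).

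Ypel1 was scarce, with 29, 19, 8 and 11 counts in aged mice 1 to 4, against 19, 27, 23 and 19 counts in young mice 1 to 4. Aged mice 3 and 4 were the lowest of all, and the groups overlapped. The log2 fold change was -0.52 with a standard error of 0.38 (edgeR, adjusted p = 0.404), and -0.83 without aged mouse 1 (edgeR, adjusted p = 0.190).

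Ypel4 was barely detected, with 8, 1, 2 and 4 counts in aged mice 1 to 4, against 0, 2, 1 and 0 counts in young mice 1 to 4. It did not pass the filter on low counts and was not tested. A count of 0 allows a level of up to 0.185 CPM in young mouse 1 and 0.177 CPM in young mouse 4, taking 3 counts as the floor. Summed over mice and scaled for depth, the aged to young ratio was 4.58 (exact 95% interval 1.30 to 24.7, counting error only). Aged mouse 1 held 8 of the 15 aged counts, and without it the ratio was 2.97 with an interval of 0.678 to 17.8, so that no difference was detectable at this depth.

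**Figure D2:**
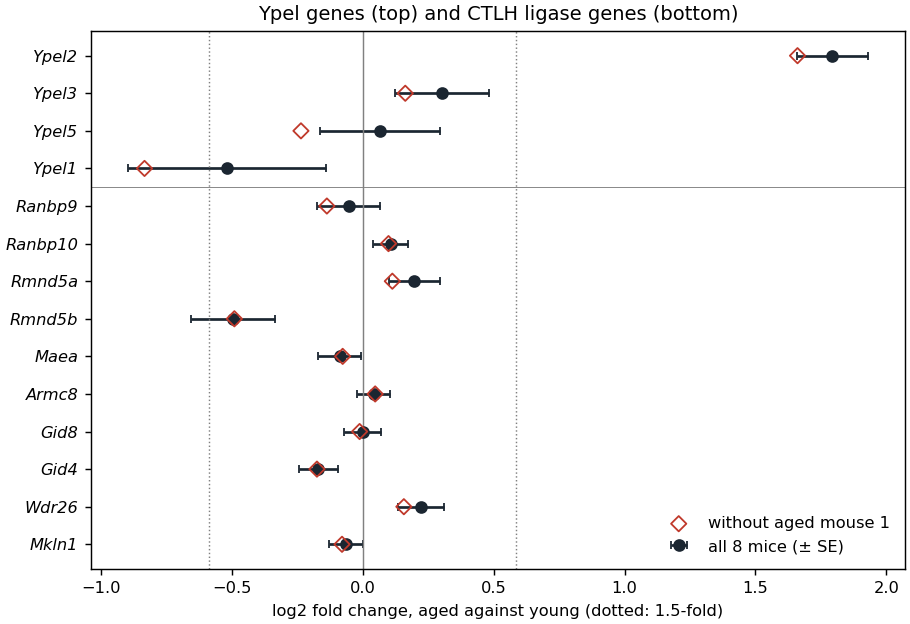
Log2 fold change with age (positive where aged mice were higher) for the 4 tested Ypel genes and the 10 other CTLH ligase genes, with all 8 mice (filled circles, bars are ± 1 standard error) and without aged mouse 1 (open diamonds). Ypel2 lies at 1.79, Ypel5 crosses 0 when aged mouse 1 is left out, and none of the CTLH genes lies beyond the dotted 1.5-fold lines.

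The make-up of the Ypel transcript pool differed between the groups. Ypel2 made up 20.7%, 19.1%, 25.8% and 24.7% of the summed FPKM of the 5 genes in aged mice 1 to 4. In young mice 1 to 4 it made up 9.58%, 7.54%, 9.67% and 8.05%. Every aged share was above every young share, and as the shares contain Ypel2 they were not tested. The share of Ypel5 was 29.6%, 23.0%, 23.0% and 24.6% in aged mice 1 to 4 and between 31.6% and 34.6% in young mice. The share of Ypel3, between 48.9% and 57.3% in aged and between 54.5% and 59.7% in young mice, overlapped between the groups. Shares within a pool are tied to each other, so a larger share of Ypel2 makes the others smaller.

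**Figure D3:**
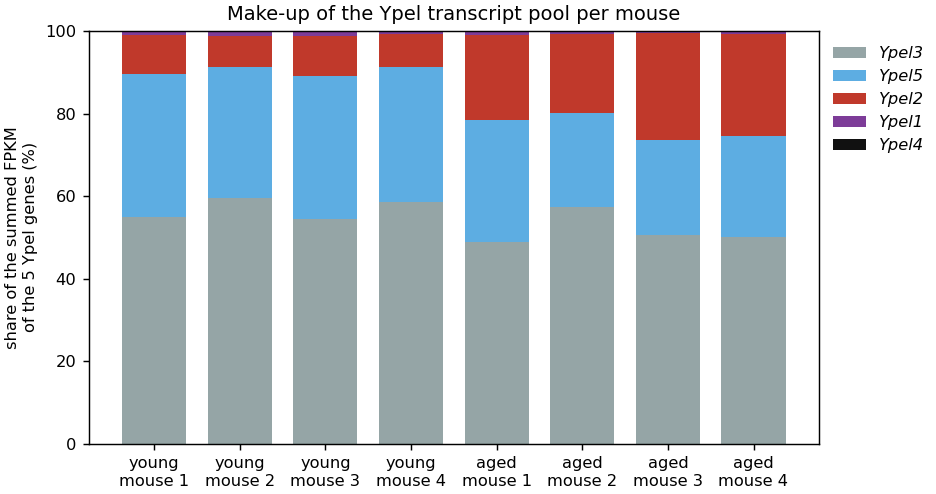
Share of each Ypel gene in the summed FPKM of the 5 genes (%), one stacked bar per mouse. Ypel2 (red) takes 19.1% to 25.8% in aged mice and 7.54% to 9.67% in young mice, Ypel3 is the largest part in every mouse, and Ypel1 and Ypel4 are thin bands at the top.

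The summed level of the family was 77.5, 60.9, 42.1 and 49.5 FPKM in aged mice 1 to 4 and between 40.0 and 45.6 FPKM in young mice. Aged mouse 3 lay within the young range although its Ypel2 was raised. Set against another member of the same mouse, Ypel2 reached 0.699, 0.831, 1.12 and 1.00 FPKM per FPKM of Ypel5 in aged mice 1 to 4, compared with 0.239 to 0.280 in young mice. Per FPKM of Ypel3, it reached 0.333 to 0.509 in aged and 0.126 to 0.177 in young mice. Neither ratio overlapped between the groups, and the ratio to Ypel5 in aged mouse 1 was the lowest of the aged mice. The ratio of Ypel3 to Ypel5, which does not involve Ypel2, was 1.65 to 2.49 in aged and 1.58 to 1.89 in young mice, and these ranges overlapped.

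All members were highest in aged mouse 1 among the aged mice. Relative to the mean of the other aged mice, aged mouse 1 was higher by 0.47 on the log2 scale for Ypel2, 0.52 for Ypel3, 0.93 for Ypel1 and 0.96 for Ypel5. Over all genes tested the median of this difference was -0.01, and 83.1% of genes had a smaller difference than Ypel2 and 93.1% a smaller one than Ypel5. Of these 4 members Ypel2 had the smallest excess in this mouse.

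The list for the CTLH ubiquitin ligase was followed because Ypel5 binds it. The complex holds the RING proteins Maea and Rmnd5a or Rmnd5b, the scaffold proteins Ranbp9, Ranbp10, Armc8 and Gid8, the substrate receptor Gid4, and Wdr26 and Mkln1. All 11 genes of the list, Ypel5 included, could be tested, and edgeR called 0 of them, as did DESeq2 and limma-voom. Over all genes tested edgeR, DESeq2 and limma-voom called 2.06%, 6.26% and 3.46%. At an unadjusted p below 0.05, 3 of the 11 passed, where 25.5% of all genes tested did. The median log2 fold change of the list was 0.00, against 0.03 over all genes tested.

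Wdr26 stood at 266 ± 24.9 CPM with age and 228 ± 8.10 CPM in the young group (SD, n = 4 each), with ranges that did not overlap (log2 fold change 0.22, edgeR adjusted p = 0.155). Rmnd5b stood at 20.9 ± 1.11 CPM with age and 29.4 ± 7.28 CPM in the young group (SD, n = 4 each) (log2 fold change -0.49, edgeR adjusted p = 0.108). Its relative Rmnd5a was more abundant, at 242 ± 27.6 CPM with age and 211 ± 11.5 CPM in the young group (SD, n = 4 each; log2 fold change 0.20, edgeR adjusted p = 0.233). Gid4, which the tables name 4933439F18Rik, had a log2 fold change of -0.17 (edgeR adjusted p = 0.195). Ranges did not overlap for 3 of the 11 genes, Wdr26, Rmnd5b and Gid4, compared with 18.9% of all genes. The remaining members, Ranbp9 (-0.05), Ranbp10 (0.11), Maea (-0.09), Armc8 (0.04), Gid8 (0.00, named 2310003C23Rik) and Mkln1 (-0.06), had log2 fold changes near 0. When libraries were scaled by their totals alone, Ranbp9, Maea and Mkln1 turned to 0.06, 0.03 and 0.05.

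The Yippee domain shares its fold with the Mis18 proteins, which load histone CENP-A at centromeres, and with cereblon, a substrate receptor of another ubiquitin ligase. Of these 3 genes edgeR called 0, against 2.06% of all genes, and 0 passed an unadjusted p below 0.05, against 25.5% of all genes. DESeq2 and limma-voom also called 0, where they called 6.26% and 3.46% of all genes. With so few genes, nothing is read from these counts. Crbn stood at 92.0 ± 9.34 CPM with age and 84.0 ± 7.83 CPM in the young group (SD, n = 4 each) (log2 fold change 0.13, edgeR adjusted p = 0.422). Oip5 and Mis18a (named 2610039C10Rik) were scarce, at 0.410 and 2.99 CPM on average in aged mice, and had log2 fold changes of -0.76 (edgeR adjusted p = 0.287) and 0.00 (edgeR adjusted p = 0.994).

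Because Ypel3 is regulated by p53, p53 and its targets were counted as well. Of 22 genes tested 1 was called, 4.55% against 2.06% of all genes. This was Eda2r, a death receptor of the TNF receptor family, which stood at 11.3, 4.36, 4.81 and 3.32 CPM in aged mice 1 to 4 and between 1.00 and 2.13 CPM in young mice. Its log2 fold change was 1.93 with a standard error of 0.42 (edgeR adjusted p = 0.0483). Leaving out aged mouse 2, aged mouse 3 or any one of the young mice ended the call, with adjusted p (edgeR) from 0.0669 to 0.135. In these fits far fewer genes were called in all. The number was 119 without aged mouse 2, 115 without aged mouse 3 and 8 to 35 without a young mouse, against 287 with all mice. Without aged mouse 1 Eda2r was still called, with a log2 fold change of 1.41 (edgeR adjusted p = 0.0270). DESeq2 called 4 of the 22 genes and limma-voom 2, where they called 6.26% and 3.46% of all genes. At an unadjusted p below 0.05, 10 of the 22 passed, against 25.5% of all genes. Both other tools called Cdkn1a, with log2 fold changes of 2.99 (DESeq2 adjusted p = 0.00431) and 1.82 (limma-voom adjusted p = 0.0423). The median log2 fold change of the list was 0.25, and aged mouse 1 exceeded the other aged mice by a median of 0.62 on the log2 scale.

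Among 12 cell cycle inhibitors and senescence genes tested, edgeR called 1, Cdkn2c, which is 8.33% against the same 2.06%. DESeq2 called 4 and limma-voom 3, where they called 6.26% and 3.46% of all genes, and Cdkn1a was called by both. At an unadjusted p below 0.05, 6 of the 12 passed, against 25.5% of all genes. Cdkn2c, a brake on the cyclin D kinases, rose with age, from 5.74 ± 0.588 to 9.33 ± 0.955 CPM (SD, n = 4 each), by 0.70 on the log2 scale with a standard error of 0.13 (edgeR adjusted p = 0.0390). Aged mouse 1 did not stand out, at 9.23 CPM. The call of Cdkn2c was lost in the same 6 fits, where far fewer genes were called in all, with adjusted p (edgeR) from 0.0556 to 0.122. Without aged mouse 1 the genes called in the 2 lists included Eda2r, Cdkn2c, Cdkn1a (the p21 inhibitor, which is in both lists) and Glb1, which was lower in aged mice, where 3.17% of all genes were called. Without aged mouse 4 each list had 4 called genes, where 5.21% of all genes were called.

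For FoxO factors and their targets, edgeR called 0 of 14 genes tested, against 2.06% of all genes, while 6 passed an unadjusted p below 0.05, against 25.5% of all genes. DESeq2 called 2 of these genes, Bcl6 and Irs2, and limma-voom 0, where they called 6.26% and 3.46% of all genes. Pdk4, a switch of fuel use induced by fasting, stood at 892 CPM in aged mouse 1, 24.9 to 60.8 CPM in the other aged mice and 14.1 to 29.5 CPM in the young mice. Bcl6 (log2 fold change -1.99, edgeR adjusted p = 0.0742) and Irs2 (1.27, edgeR adjusted p = 0.0946) also missed the threshold. Over the list, aged mouse 1 exceeded the other aged mice by a median of 0.62 on the log2 scale, as the Ypel genes did by a median of 0.73. Whether the excess of the Ypel genes in this mouse and that of these lists are linked was not tested.

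Genes of the circadian clock also differed between the groups. Of 18 genes tested, 3 were called higher (Arntl, the clock activator Bmal1, Npas2 and Nfil3) and 2 lower (Dbp and Nr1d2) in aged mice, 27.8% against 2.06% of all genes. Arntl had a log2 fold change of 2.73 and Dbp of -2.63. Clock transcripts change over the day, and the hour at which each mouse was killed is not given in the sources used here. The part of the clock in the values of Ypel2 was not tested. Without young mouse 1, 2, 3 or 4 the number of clock genes called was 1, 3, 2 and 1, where 0.0567%, 0.248%, 0.099% and 0.0849% of all genes were called. Without aged mouse 1 it was 6, against 3.17% of all genes.

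Markers of other cell types were examined beside Ypel2. The list for B, T and plasma cells, with 9 genes in the tables and none at 0 in every library, summed to between 37.1 and 102 CPM in aged mice and between 8.86 and 19.5 CPM in young mice, without overlap. Of its 6 genes tested 1 was called, against 2.06% of all genes. This was Igj, the joining chain of plasma cell antibodies, at 49.4 ± 31.5 CPM with age and 7.90 ± 3.82 CPM in the young group (SD, n = 4 each). Igj made up most of the summed level of the list, whose mean was 55.7 CPM in aged and 12.6 CPM in young mice. Aged mouse 3 had the highest sum of this list. Its Ypel2, at 52.6 CPM, lay close to the 56.3 and 59.2 CPM of aged mice 2 and 4. The part of these cells in the higher Ypel2 was not tested. The sums of the other 8 marker lists, among them macrophage (232 to 383 CPM in aged, 214 to 311 CPM in young mice), endothelium and fibroblasts, overlapped between the groups. Within the macrophage list 7 of 8 genes had a positive log2 fold change, with a median of 0.38. The 1 gene called, against 2.06% of all genes, was the exception, the growth factor receptor Csf1r, which was lower in aged mice (edgeR adjusted p = 0.0472).

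The profile of Ypel2 over the 8 mice was compared with that of every other gene tested. Likeness was the root mean square difference between log2 CPM profiles, each centered on its own mean. The smallest difference was 0.15 for Clca1, a chloride channel accessory gene and the subject of the study, followed by Csmd1 (0.21), C130026I21Rik (0.22), N28178 (0.23), Akr1c13 (0.24), Ccl6 (0.28), Akr1c12 (0.29), Creg2 (0.30), H2-Q2 (0.30) and C3 (0.31). Akr1c12 and Akr1c13 are aldo-keto reductases, Ccl6 is a chemokine, C3 is the central complement component and H2-Q2 is a class I histocompatibility gene. All 10 were called higher in aged mice, which follows from choosing genes that resemble Ypel2. Without any one mouse Clca1, Akr1c13 and Ccl6 were still called, while the other 7 lost the call without at least 3 of the young mice. With a young mouse left out only 8 to 35 genes were called in all, against 287 with all mice. Clca1 stood at 41.1, 31.4, 39.1 and 37.4 CPM in aged mice 1 to 4 and between 9.10 and 12.5 CPM in young mice. C130026I21Rik averaged only 0.153 CPM in young mice, close to the level of 3 counts, and reads of the Akr1c and H2-Q genes may be shared with close relatives.

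**Figure D4:**
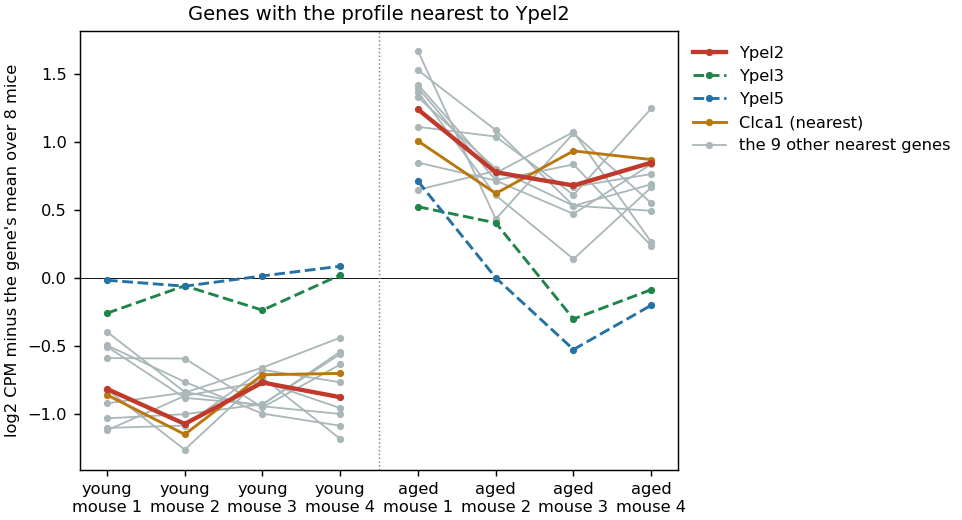
Log2 CPM of each gene minus its mean over the 8 mice, for Ypel2 (red), the 10 genes nearest to it (Clca1 in brown, the others in gray), Ypel3 and Ypel5 (dashed); lines only join values of one gene within a group, as mice have no order. Ypel2 and its nearest genes are low in all young and high in all aged mice. Ypel3 and Ypel5 lie between -0.26 and 0.09 in young mice and below Ypel2 in every aged mouse. Both lie below their own mean in aged mice 3 and 4, and Ypel5 lies at its mean in aged mouse 2.

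No other member was among the genes nearest to Ypel2. Ypel2 was chosen for its age difference, so members with small differences cannot lie close to it by this measure. Among 13943 genes ranked by likeness to Ypel2, Ypel3 came at 2376 with a difference of 0.79, Ypel5 at 6649 with 0.91 and Ypel1 at 13059 with 1.24. Ypel3 and Ypel5 were closer to each other, with a difference of 0.22, which placed Ypel3 at rank 452 among the genes nearest to Ypel5. Nearest to Ypel3 were Ccdc112, P4htm and Tbc1d17, all at a difference of 0.09 to 0.10. Nearest to Ypel5 were Pex16, a gene of peroxisome assembly, Sun3 and Fam63a, at 0.09 to 0.10. None of the 5 genes nearest to each of Ypel1, Ypel3 and Ypel5 was called, which follows from choosing genes that resemble members not called themselves.

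The nearest genes on both sides of each member were followed as well. Of the 10 neighbors 8 could be tested and edgeR called 0, while 3 passed an unadjusted p below 0.05, where 2.06% and 25.5% of all genes did. DESeq2 called 1, Gdpd3 beside Ypel3, and limma-voom called 0, where they called 6.26% and 3.46% of all genes. Beside Ypel2 lie Dhx40, at a distance of 128728 nt, and Gdpd1, at 40159 nt. Dhx40, a helicase gene, stood at 95.5 ± 22.1 CPM with age and 72.6 ± 6.55 CPM in the young group (SD, n = 4 each), with a log2 fold change of 0.40 (edgeR adjusted p = 0.153). Gdpd1 had a log2 fold change of 0.43 (edgeR adjusted p = 0.309). Gdpd3, which lies 1311 nt from Ypel3, stood at 5.75, 2.34, 23.9 and 20.1 CPM in aged mice 1 to 4, and these values did not run with those of Ypel3, which was highest in aged mice 1 and 2.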

How the data were processed

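The authors aligned paired reads of 100 bp to the mouse build mm9 (TopHat2) and used HTSeq-count, with strand, to obtain raw counts on RefSeq genes, which they deposited for each library. Program versions are not given in the sources used here, apart from CASAVA 1.8.2 in the submitters' processing notes. A second, combined table was left aside. The 5 summary lines at the end of each table entered neither library sizes nor tests. Pairs on no gene were 20.0% to 29.9% of a library, and pairs placed in several positions 34.3% to 39.1%.

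The counts were tested in R 4.3.3 with edgeR 4.0.16 (quasi-likelihood, TMM, filterByExpr with a minimum count of 10, no covariate), with Benjamini-Hochberg adjustment over 13944 genes and calls where the adjusted p was under 0.05 and the change over 1.5-fold, the thresholds of the study without its FPKM criterion. The standard error is the log2 fold change divided by the square root of F. Log2 CPM used a prior count of 2. DESeq2 1.42.0 and limma-voom (limma 3.58.1) were alternatives, beside other scalings, filters, robust fitting, a replicate block and each mouse left out. Lengths and coordinates came from the GENCODE annotation of NCBIM37 (mm9), coding sequences were aligned with MAFFT 7.526, and copies were sought with BLAST 2.17.0. Older names in the tables were matched through the RefSeq gene table of GRCm38.p6, used for names only. The tests were checked on simulated counts.

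The members and gene lists were chosen with earlier results of these data known. Named genes are the members, all CTLH and Yippee-fold genes, the called genes of each other list or else the 3 with the smallest p, the genes nearest in profile and the neighbors. Igj, Csf1r, Cdkn1a and Glb1 were named after its values were seen. Same-numbered aged and young mice correlated by -0.03 to 0.21 in their deviations from the group means. Aged mice 1, 2 and 3 each correlated most with the young mouse of the same number, and aged mouse 4 with young mouse 2. The labels state no pairing, and the numbers were not taken to pair the mice. No 2 libraries were duplicates, since any pair differed by a chi-square of at least 9.21 per gene over 14047 genes.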

Additional observations from a re-analysis of the deposited data

Results flagged for a closer look

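A sample was taken as far from the other 3 of its group when its gap to the nearest of them, as a share of the range of the group, was above the 95% limit of Dixon's test. This held for 9 samples in 122 groups, where 6.1 are expected by chance, and none of the Ypel genes was among them. Aged mouse 1 was far in 4 of the 9. It was highest in Pdk4 (0.959 of the range), in the CTLH gene Rmnd5a (0.839) and in the summed level of p53 and its targets (0.831), and lowest in Mis18a, named 2610039C10Rik (0.831). In the aged group, aged mouse 2 was highest in Bcl6 (0.875), aged mouse 4 lowest in Arntl (0.883) and aged mouse 3 highest in the sum of B, T and plasma cell markers (0.913). Of the young mice, the third was highest in Irs2 (0.842) and lowest in C3 (0.855).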

How the results depend on the processing

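Ypel2 kept its direction under every alternative, with a log2 fold change from 1.68 (limma-voom) to 1.90 (library size only) over 9 other settings and from 1.66 to 1.86 with one mouse left out. Ypel1 ranged from -0.86 to -0.40 over the 8 other settings that kept it and from -0.83 to -0.28 with one mouse left out. Ypel3 ranged from 0.18 to 0.42 and from 0.16 to 0.43. Ypel1 and Ypel3 passed the test under none of these settings. Ypel5 turned to -0.19 with limma-voom and to -0.0079 with the replicate block, and ranged from -0.24 without aged mouse 1 to 0.22 without aged mouse 3. limma-voom gave sample weights, and why the other fit turned was not tested. Ypel4 was tested only when every gene with a count was kept (log2 fold change 2.00, edgeR adjusted p = 0.235). With merged exon length Ypel1 and Ypel3 stood at 0.285 and 20.8 FPKM in young mice.

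Of the genes tested, 287 were called, and the number was 488 with library size only, 873 with DESeq2, 483 with limma-voom and 130 with the replicate block. The numbers shared by the labels were not taken to pair the mice, and with the block Eda2r, Cdkn2c, N28178 and H2-Q2 were no longer called. With one mouse left out the number ranged from 8 without young mouse 1 to 733 without aged mouse 4. The causes were not tested. With library size only the median over all genes moved from 0.03 to 0.14 on the log2 scale.

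Some small changes, none of them called, turned sign. Gid8 (2310003C23Rik) was at -0.0038 with DESeq2 size factors, -0.0076 without the filter, -0.0031 with DESeq2, -0.0080 with limma-voom and -0.00048 with the replicate block, and between -0.028 and 0.034 with one mouse left out. Mis18a (2610039C10Rik) was at 0.035 with upper-quartile scaling, 0.11 with library size only, 0.0018 with at least 10 counts in every library, 0.060 with limma-voom and 0.019 with the replicate block, and between -0.10 and 0.14 with one mouse left out. With library size only Ranbp9 was at 0.055, Maea at 0.025, Mkln1 at 0.048 and Lbh at 0.089, and Lbh was at 0.014 with upper-quartile scaling. With one mouse left out Ranbp9 ranged from -0.14 to 0.016, Clp1 from -0.062 to 0.088 and Lbh from -0.16 to 0.10. Dividing each profile by its SD kept 2 of the 10 genes nearest to Ypel2, Clca1 and C130026I21Rik, and placed Tnk2, Shisa7, Zfp385a and Cln6 before Clca1. Depth limits Ypel4 and Ypel1, since 3 counts correspond to 0.147 to 0.204 CPM.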
